A study of Rattus norvegicus with 6 samples.

Results

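The 10 genes described here belong to the endothelial cells that line the vessels of the pituitary gland, and were found in the count files by their gene symbols, Pecam1, Cdh5, Kdr, Flt1, Tek, Plvap, Esam, Emcn, Cd34 and Cd300lg. All 10 were found among 33294 gene symbols, and all 10 were among the 17292 genes kept by the filter on low counts. Cd300lg was selected on its difference between the nicotine and control libraries described here, so its values are given as a description without a test. The other 9 genes were listed for what they encode. RNA was sequenced from whole pituitary glands of 6 male Sprague-Dawley rats aged 11 weeks, with 1 library per rat. In the nicotine group, 3 rats were offspring of dams that carried an osmotic pump with nicotine tartrate (6 mg/kg per day), and 3 were offspring of control dams whose pump held saline.

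The pump was a 28-day type, and the labels put birth at 13 days after surgery, on gestational day 19. Whether it was removed at birth is not stated, nor is whether the rats of a group came from different litters, so the p-values measure only the spread between these rats. The libraries held 28318383 to 85977002 counts. The nicotine libraries were the deeper group, at 46239801 or more each, although control replicate 2 with 54309256 counts was deeper than nicotine replicate 1. The tissue label held: the 7 hormone genes of the anterior lobe summed to 113500 to 176200 CPM (counts scaled to library size) per library, while 8 testis germ cell genes summed to at most 0.149 CPM. In the list of sequenced reads in the supplement of the study, each nicotine library has fewer reads than it has counts here and each control library has more, and exchanging the groups would remove this. The groups are used as labelled in the deposit, and the direction of every difference rests on those labels.

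Endothelial cells form the inner wall of all blood vessels. In the pituitary they build the portal vessels and a dense bed of fenestrated capillaries, whose pores are closed by thin diaphragms and let hypothalamic factors in and hormones out. Vascular endothelial growth factor (VEGF) from hormone and folliculostellate cells acts on these vessels through the receptors encoded by Kdr and Flt1, and angiopoietins act through the receptor encoded by Tek. PECAM1 (CD31), VE-cadherin from Cdh5 and ESAM hold neighboring endothelial cells together. The product of Plvap forms the fenestral diaphragm, and endomucin (Emcn) and CD34 are sialomucins of the surface that faces the blood. CD300LG, also called nepmucin, is a receptor of capillary and venule endothelium that binds lymphocytes.

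The 9 genes other than Cd300lg were mostly at higher levels in the nicotine-exposed glands, but no difference passed the test. Their log2 fold changes (nicotine minus control) had a median of 0.44, against 0.00697 over all genes tested. They lay between -0.08 for Cd34 and 0.83 for Pecam1. Of the 9, 8 were above 0, as were 51% of all genes tested, and 1 was below, as were 49%. By edgeR's quasi-likelihood test 0 of the 9 reached the call used by the study (adjusted p below 0.1 with at least a 1.5-fold difference), and over all genes tested 0% were called. DESeq2 also called 0 of the 9, where its background was 0.312% of genes. At an unadjusted p under 0.05, 5 of the 9 were counted as higher in edgeR and 5 in DESeq2. In edgeR 6.14% of all genes were under this p, 542 of them higher and 520 lower. All shares of genes at this p count both directions. The edgeR number was 3 without nicotine replicate 3, where the share of all genes was 7.13%, and 3 without control replicate 1 (3.82%) or control replicate 3 (4.81%). It was 7 without nicotine replicate 2 (6.67%) and 3 with the replicate number as a block (5.21%). The 9 genes varied together across libraries, so they are not independent of each other. In whole glands, more endothelial cells and more RNA per endothelial cell cannot be told apart.

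**Figure D1:**
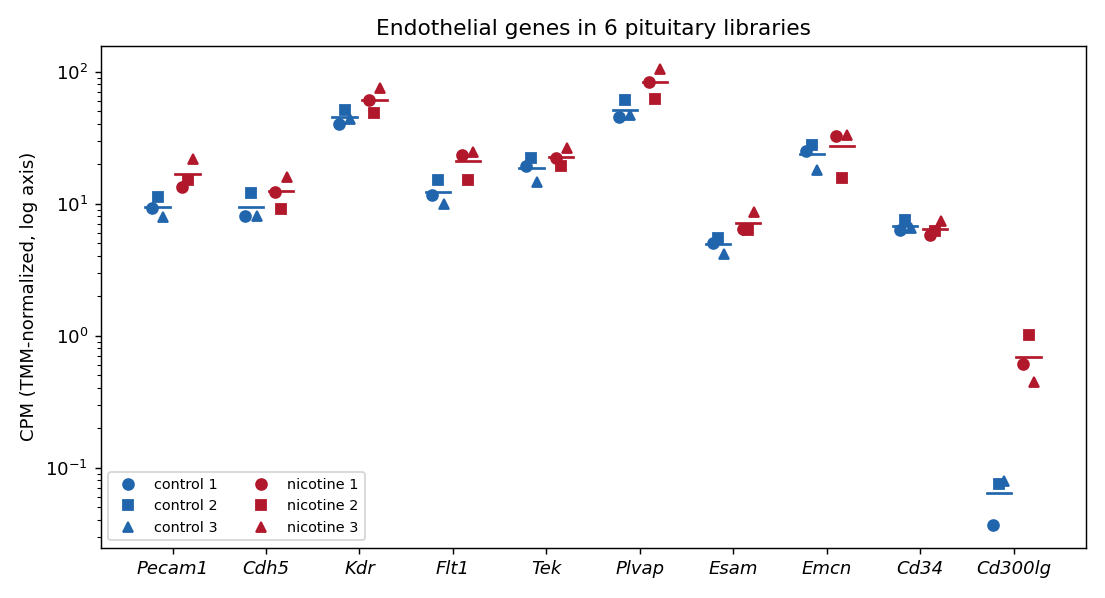
Level of each of the 10 genes in the 6 libraries, in CPM after TMM normalization on a log axis, with control libraries in blue, nicotine libraries in red, 1 marker shape per replicate and a bar at the group mean. The levels of Pecam1, Flt1, Plvap and Esam do not overlap between groups, Cd34 is nearly level, and Cd300lg lies at 0.446 to 1.01 CPM in the nicotine libraries and at 0.0369 to 0.0792 CPM in the controls.

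Pecam1, Esam and Cdh5 encode proteins of the contacts between endothelial cells. Pecam1 was at 13.3, 15.2 and 21.9 CPM in nicotine replicates 1, 2 and 3, and at 9.19, 11.2 and 7.92 CPM in control replicates 1, 2 and 3. The groups did not overlap, and the lowest nicotine value was 1.19 times the highest control value. The group means were 16.8 ± 4.50 and 9.44 ± 1.66 CPM (SD, n = 3 each). The log2 fold change was 0.83 (standard error 0.23, 95% interval 0.31 to 1.34, adjusted p = 0.760 from edgeR). Esam, whose product sits at tight junctions, was at 6.38, 6.26 and 8.59 CPM after nicotine and at 5.06, 5.502 and 4.17 CPM in controls. Again the groups did not overlap, with a log2 fold change of 0.52 (95% interval 0.02 to 1.03, adjusted p = 0.806 from edgeR). Cdh5, which encodes the cadherin of adherens junctions, was at 12.3, 9.10 and 16 CPM after nicotine and at 8.08, 11.9 and 8.03 CPM in controls. Here nicotine replicate 2 lay below control replicate 2, and the log2 fold change of 0.41 had a 95% interval from -0.15 to 0.96 (adjusted p = 0.827 from edgeR).

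The 3 receptor tyrosine kinases among the members were compared next. Kdr, the main signaling receptor for VEGF-A, was at 60.8, 48.2 and 74.7 CPM after nicotine and at 40.3, 51.1 and 43.5 CPM in controls. Nicotine replicate 2 was under control replicate 2, and the log2 fold change was 0.44 (95% interval 0.03 to 0.86, adjusted p = 0.806 from edgeR). Flt1 encodes a VEGF receptor that binds the ligand tightly and signals weakly. Its levels were 23.2, 15.2 and 24.4 CPM after nicotine against 11.7, 15.1 and 9.96 CPM in controls. The groups did not overlap, but nicotine replicate 2 exceeded control replicate 2 by a factor of only 1.005. The log2 fold change was 0.77 (standard error 0.23, 95% interval 0.25 to 1.28, adjusted p = 0.760 from edgeR). Tek, the angiopoietin receptor, was at 22.2, 19.2 and 26.5 CPM after nicotine and at 19.2, 22.01 and 14.5 CPM in controls. These ranges overlapped widely, with a log2 fold change of 0.29 (95% interval -0.16 to 0.73, adjusted p = 0.833 from edgeR).

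Plvap, the gene of the fenestral diaphragm, was at 83.6, 61.7 and 104.9 CPM after nicotine and at 45.5, 61.1 and 46.6 CPM in controls. All nicotine values exceeded all control values, with a margin of 1.01 times between nicotine replicate 2 and control replicate 2. The means were 83.4 ± 21.6 and 51.05 ± 8.71 CPM (SD, n = 3 each), and the log2 fold change was 0.71 (standard error 0.21, 95% interval 0.24 to 1.17, adjusted p = 0.760 from edgeR). For Pecam1, Esam, Flt1 and Plvap the exact two-sided permutation test gave p = 0.1, which is the lowest value possible with 3 rats per group. Every gene without overlap gives this value, so it adds nothing to the lack of overlap. Of the 9 genes, 4 thus had all nicotine libraries above all controls, where 6.12% of all genes tested did, and 0 of the 9 had them all below, where 5.14% of genes did. With fewer libraries, groups fail to overlap more often by their number alone. Without nicotine replicate 2 all nicotine libraries were above all controls for 7 of the 9, against 11% of all genes, and without control replicate 2 for 6, against 10.5%. The number was 2, against 5.82% of all genes, when the genes with over 1% of the counts were left out of the library sizes.

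The groups overlapped for the surface sialomucin genes Emcn and Cd34, as they did for Cdh5, Kdr and Tek. Emcn was at 32.6, 15.5 and 33.2 CPM after nicotine and at 25.03, 27.6 and 18.1 CPM in controls. The lowest of all 6 values was in nicotine replicate 2, and the log2 fold change of 0.20 had a wide 95% interval from -0.42 to 0.81 (adjusted p = 0.899 from edgeR). Without nicotine replicate 2 the log2 fold change of Emcn was 0.47. Cd34 is made by endothelium and also by fibroblasts and progenitor cells. It was at 5.77, 6.15 and 7.37 CPM after nicotine and at 6.31, 7.53 and 6.55 CPM in controls. No nicotine library exceeded all controls, and the log2 fold change was -0.08 (95% interval -0.54 to 0.38, adjusted p = 0.948 from edgeR). Cd34 also had the narrowest range of the 10 genes, with the highest library at 1.30 times the lowest.

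**Figure D2:**
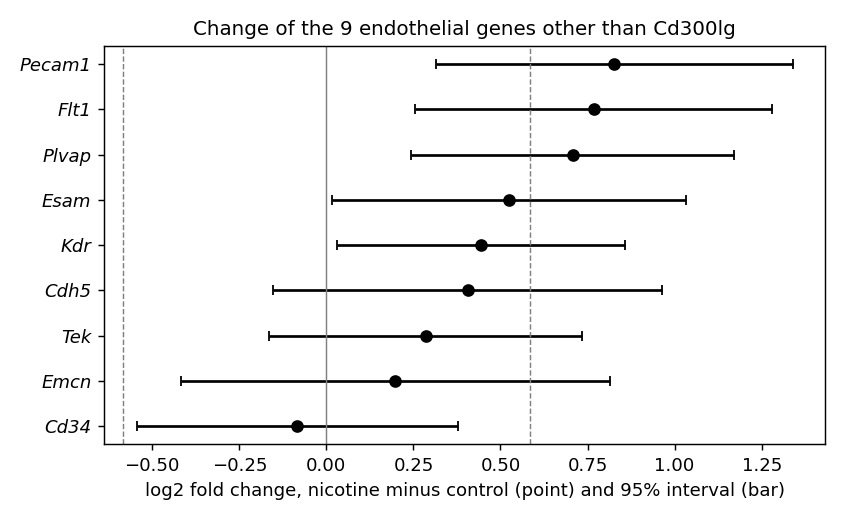
Log2 fold change between nicotine and control for the 9 genes other than Cd300lg, from edgeR's quasi-likelihood fit, as points with 95% intervals; the dashed lines mark a fold change of 1.5 in either direction. Pecam1 (0.83), Flt1 (0.77) and Plvap (0.71) lie past the line, the intervals of Cdh5, Tek, Emcn and Cd34 include 0, and none passed the adjusted test.

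The sequences before the start sites of Flt1 and Plvap are shown because both genes were higher in all nicotine libraries and tracked each other across libraries. Their margins over the highest control were only 1.005 and 1.01 times. That of Cd34 is shown as the member that tracked both least. RefSeq promoters (build GRCr8, which is not the build of the count files) were found for 5 of the 10 members, namely Emcn, Flt1, Cd34, Kdr and Plvap. The 250 bases upstream of the start site are written 5′ to 3′ on the strand of the gene. Capitals mark AGGAAG, a core bound by ETS factors, which are major regulators of endothelial genes, as well as TATAAA and the cyclic AMP response element TGACGTCA, each searched on both strands. The 3 motifs were picked after the sequences had been seen.
Flt1, chr12:12333180-12333429, plus strand: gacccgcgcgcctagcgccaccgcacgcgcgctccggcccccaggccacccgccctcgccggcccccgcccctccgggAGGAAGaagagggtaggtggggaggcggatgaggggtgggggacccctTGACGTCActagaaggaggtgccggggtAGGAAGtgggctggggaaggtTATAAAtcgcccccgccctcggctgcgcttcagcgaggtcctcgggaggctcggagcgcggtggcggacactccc
Plvap, chr16:18231280-18231529, minus strand: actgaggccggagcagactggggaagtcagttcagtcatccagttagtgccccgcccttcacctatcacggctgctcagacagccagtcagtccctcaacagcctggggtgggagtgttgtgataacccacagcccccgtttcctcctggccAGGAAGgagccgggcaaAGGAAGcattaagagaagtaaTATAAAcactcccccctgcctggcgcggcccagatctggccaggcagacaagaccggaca
Cd34, chr13:109008536-109008785, plus strand: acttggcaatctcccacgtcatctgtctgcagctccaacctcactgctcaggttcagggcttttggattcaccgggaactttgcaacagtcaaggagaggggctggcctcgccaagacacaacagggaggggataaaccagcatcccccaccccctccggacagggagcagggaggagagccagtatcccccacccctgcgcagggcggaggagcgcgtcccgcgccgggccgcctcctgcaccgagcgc
AGGAAG occurred 2 times each upstream of Flt1, Plvap and Emcn, and not upstream of Kdr or Cd34. It was found in 3 of the 5 windows and in 29.5% of all 33469 promoter windows of the same length. TATAAA was in 2 of the 5 windows (Flt1 and Plvap) and in 12.9% of all windows, and TGACGTCA was in that of Flt1 and in 1.59% of all windows. Kdr, whose window is not shown, held none of the 3 motifs and tracked Plvap (r = 0.988) more closely than Flt1 did (r = 0.970). The motif matches describe letters only.

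Between libraries, the 9 genes moved largely together. Pearson's r of the log2 CPM over the 6 libraries was above 0 for all 36 pairs, with a median of 0.835. It was highest for Kdr and Plvap, at 0.988, and lowest for Flt1 and Cd34, at 0.0510. After the group means were taken out, the median was 0.804, so the shared variation was also present within groups. Of the 9 lowest values, 8 involved Cd34, and the other was that of Pecam1 and Emcn. These correlations rest on 6 libraries that share depth and normalization and carry no test.

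Nicotine replicate 3 had the highest level of 8 of the 9 genes, and control replicate 3 the lowest of 5. The summed level of the 9 genes was 260.2, 196.4 and 318 CPM in nicotine replicates 1, 2 and 3 and 170.3, 213 and 159 CPM in the controls, so that nicotine replicate 2 lay below control replicate 2. The median log2 fold change of 0.44 was 0.28 without nicotine replicate 3 and 0.62 without control replicate 2. When libraries were omitted singly, the change of Pecam1 stayed between 0.59 and 0.97, that of Flt1 between 0.64 and 0.95 and that of Plvap between 0.51 and 0.87. Cdh5 went as low as 0.18 and Emcn as low as 0.03, both without nicotine replicate 3. The direction of the 8 genes was positive in all of these fits.

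**Figure D3:**
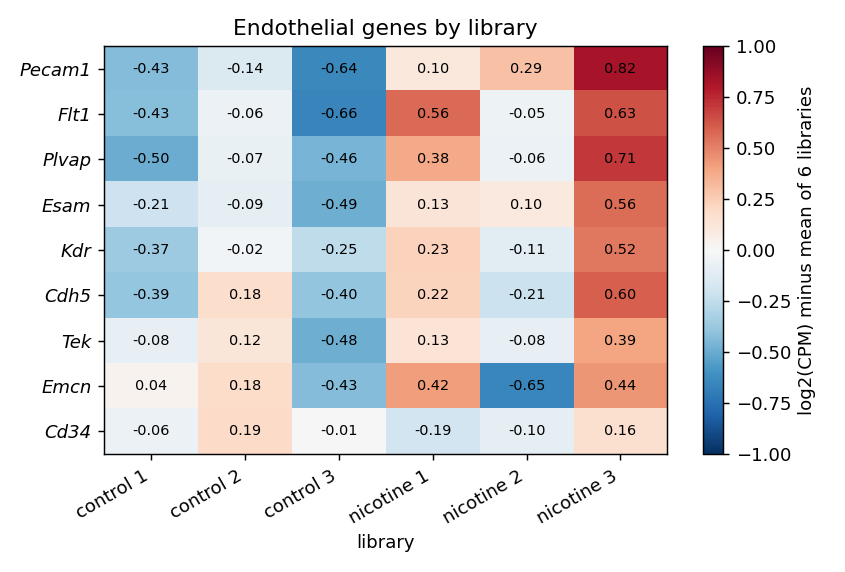
Log2 CPM of the 9 genes in each library, minus the mean of that gene over the 6 libraries, with genes in rows ordered by their log2 fold change and libraries in columns. Nicotine replicate 3 is highest for every gene but Cd34, nicotine replicate 2 is near or below the mean for most genes and lowest for Emcn, and control replicate 3 is lowest for 5 genes.

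To ask whether a member moved beyond the other members, its log2 CPM was set against their mean log2 CPM in the same library, without Cd300lg. On this scale Pecam1 was 0.42 higher, Flt1 0.36 higher and Plvap 0.28 higher in nicotine than in control libraries, with pooled within-group SDs of 0.21, 0.14 and 0.10. Cd34 was lower by this measure, at -0.59 with a pooled SD of 0.21. For these 4 genes the groups did not overlap, while Kdr (-0.01), Cdh5 (-0.04), Esam (0.09), Tek (-0.16) and Emcn (-0.34) overlapped. The share of all genes without overlap was not computed on this scale, so the number has no background. In plain CPM the groups of Cd34 overlapped, with a log2 fold change of -0.08. Each value depends on all other members, so a lower Cd34 and a higher Pecam1 are in part the same observation.

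Cd300lg was counted 29, 93 and 27 times in nicotine replicates 1, 2 and 3, and 1, 4 and 3 times in control replicates 1, 2 and 3. This was 0.615, 1.01 and 0.446 CPM against 0.0369, 0.0756 and 0.0792 CPM. All nicotine libraries were above all control libraries, and the lowest nicotine value was 5.63 times the highest control value. The means were 0.690 ± 0.289 and 0.0639 ± 0.0235 CPM (SD, n = 3 each). In control replicates 1 and 3 the count was no higher than 3, the upper limit that a count of 0 would allow. Pooled over libraries, 149 counts stood against 8, a ratio of 11.0 after scaling to the TMM-normalized library sizes. The fitted log2 fold change was 3.36, and it ranged from 2.89 without nicotine replicate 2 to 3.59 without nicotine replicate 3. Cd300lg passed the filter through its nicotine libraries, and a filter of at least 10 counts in every library removed it. Thinned to the smallest library, its log2 fold change was 3.38.

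The level of Cd300lg was compared with that of the other endothelial genes. Its Pearson's r with each of the 9 over the 6 libraries had a median of 0.590 and ran from -0.349 to 0.753. Within the nicotine group it was highest in replicate 2, where the summed level of the 9 genes was lowest, and lowest in replicate 3, where that sum was highest. As a percentage of the summed CPM of the 9 genes it was 0.236%, 0.514% and 0.140% after nicotine and 0.0217%, 0.0355% and 0.0497% in controls. Against the mean log2 CPM of the 9 genes, Cd300lg was 2.35 higher after nicotine (pooled SD 0.68, prior count 2). Cd300lg was selected on its group difference, so this value, the percentages and the r values all carry that choice and test nothing. Its nearest coding neighbors in RefSeq GRCr8 are Mpp3 and Mpp2, and no gene there overlaps it. Mpp3 was at 6.09 and 6.89 CPM (nicotine and control means) and Mpp2 at 55.9 and 48.9 CPM, with log2 fold changes of -0.18 and 0.19.

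**Figure D4:**
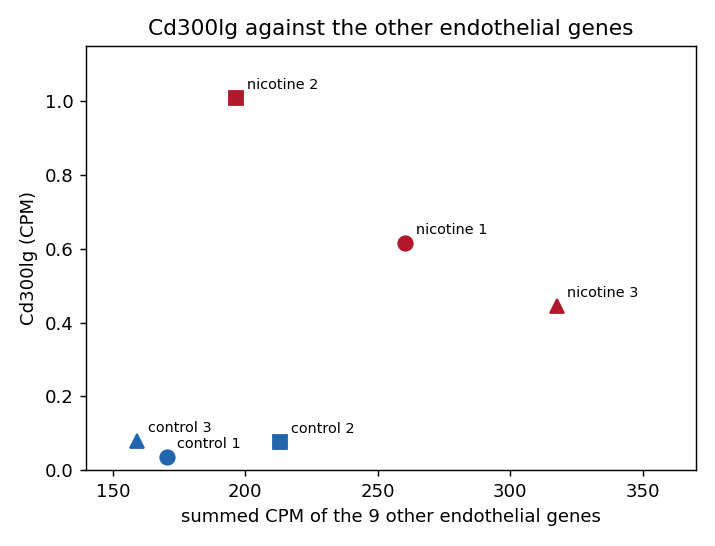
Level of Cd300lg (CPM, vertical axis) against the summed CPM of the 9 other endothelial genes (horizontal axis, not starting at 0) in each of the 6 libraries. Nicotine replicate 2 has the highest Cd300lg (1.01 CPM) with a sum of 196.4 CPM, which is below that of control replicate 2, and the controls stay at or under 0.0792 CPM.

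The genes whose profile over the 6 libraries was most like that of Cd300lg were Gatad2a (r = 0.997), Ccdc33 (0.986), Actn4 (0.984), Tfeb (0.981) and Gldn (0.980). Of these, Actn4, which encodes an actin cross-linker, was at 157.5, 176.1 and 141 CPM after nicotine and at 98.0, 115.9 and 104.1 CPM in controls. Cd300lg was selected on its group difference, so a difference between the groups in the genes most like it follows from that choice. With 6 libraries such r values are easily reached, and 173 non-member genes had an r above 0.9. The genes most like the mean profile of the 9 others were Itga1 (0.992), Piezo2 (0.992), Leng8 (0.992), Nid2 (0.986) and Dlc1 (0.984). Itga1 encodes an integrin chain that binds collagen and laminin, Nid2 a basement membrane nidogen and Piezo2 a mechanically gated channel. Here 191 non-member genes had an r above 0.9.

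The other genes of CD300 receptors, which act mainly on myeloid cells, gave no parallel to Cd300lg. Of 6 listed, 3 were tested, and all 3 had log2 fold changes below 0, with a median of -0.42. Cd300a, an inhibitory receptor, was at 2.48, 1.40 and 3.30 CPM after nicotine and at 4.10, 4.63 and 3.62 CPM in controls (log2 fold change -0.80, adjusted p = 0.806 from edgeR), without overlap. Cd300lf had a log2 fold change of -0.13 and Cd300c2 one of -0.42. Omitting nicotine replicate 2 put the median of the 3 at -0.07, and omitting nicotine replicate 1 put it at -0.69.

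A second list of 29 endothelial genes held no member, and 28 of them were tested. By edgeR and by DESeq2 0 were called. At an unadjusted p under 0.05 in edgeR 6 were higher, against 6.14% of all genes tested in either direction. The median log2 fold change of the 28 was 0.38, with 23 above 0 and 5 below, and it was 0.19 without control replicate 3. All nicotine libraries were above all controls for 6 of the 28 and below for 0, against 6.12% and 5.14% of all genes tested. Tie1, which encodes the partner receptor of TEK and is also on the next list, was at 30.9, 27.6 and 42.9 CPM after nicotine and at 18.4, 24.9 and 19.5 CPM in controls (log2 fold change 0.69, adjusted p = 0.760 from edgeR). Eng, a co-receptor for TGF-beta family ligands, had a log2 fold change of 0.55 (adjusted p = 0.806 from edgeR) and overlapping groups. Clec14a, an endothelial C-type lectin, and Tm4sf1, a tetraspan membrane protein, were at -0.04 and 0.02. The sphingosine-1-phosphate receptor gene S1pr1 was at 0.38 and Egfl7 at 0.01. The differences were thus uneven across endothelial genes, as they were among the 9 members.

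Of the ligands and remaining receptors of the VEGF and angiopoietin pathways, 12 of 13 listed genes were tested and 0 were called by edgeR or DESeq2, while 2 were higher at an unadjusted p under 0.05 in edgeR. Those 2 were Tie1 and Ptprb, a phosphatase gene of endothelium, and both are also among the 6 of the previous list. Of all genes tested, 6.14% were under this p in either direction. The median log2 fold change of this list was 0.14, with 8 genes above 0, and it was 0.22 without nicotine replicate 2 or without control replicate 2. Vegfa, the main ligand of KDR, was chosen after its values were seen. It was at 17.8, 23.2 and 20.6 CPM after nicotine and at 20.5, 15.7 and 16.9 CPM in controls (log2 fold change 0.22, adjusted p = 0.843 from edgeR). Vegfb, a ligand of FLT1 but not of KDR, was at 39.1, 44.6 and 44.1 CPM after nicotine and at 33.9, 33.2 and 35.5 CPM in controls. Its groups did not overlap, with a log2 fold change of 0.32 (adjusted p = 0.807 from edgeR). Angpt1, the activating ligand of TEK, was at 60.0, 37.8 and 45.7 CPM after nicotine and at 73.8, 66.9 and 51.7 CPM in controls (log2 fold change -0.42, adjusted p = 0.810 from edgeR). The log2 fold change of Vegfc was -0.18, that of Nrp2, a VEGF co-receptor, was 0.36 and that of Nrp1 was 0.00.

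Genes of vessel types and vessel functions were compared as lists, again with 0 calls by edgeR or DESeq2. The median log2 fold change was 0.32 for arterial genes (9 of 10 tested above 0). The most abundant were Cxcl12 (0.17), Efnb2 (0.30) and Hey2 (0.27). Venous genes had a median of -0.03 (2 of 5 above 0), with Nr2f2 at -0.13, Ephb4 at 0.39 and Aplnr at 0.72. Lymphatic genes had a median of 0.11 (3 of 6 above 0), with Pdpn at 0.33, Lyve1 at 0.29 and Ccl21 at -0.33. Genes of brain barrier endothelium, which has no fenestrae, had a median of 0.05 (6 of 11 above 0). In edgeR 4 of the 11 had an unadjusted p under 0.05, 2 in each direction, against 6.14% of all genes tested. The most abundant of the brain barrier genes, Spock2, Ocln and Slc2a1, are also made by many other cells and were at 0.23, 0.05 and 0.33. With 1 library omitted, the medians of 3 lists took either sign. They ran from -0.28 to 0.16 for the venous, from -0.05 to 0.39 for the lymphatic and from -0.03 to 0.14 for the brain barrier genes.

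CD300LG is known from capillary endothelium, and 12 genes of capillary lipid handling were listed beside it. Of these 8 were tested, with a median log2 fold change of -0.36 and 2 above 0. The median was -0.05 without control replicate 3 and -0.55 without control replicate 1. Lpl, the lipoprotein lipase, was at 8.97, 13.6 and 13.6 CPM after nicotine and at 12.6, 12.7 and 38.03 CPM in controls. Only control replicate 3 stood apart, and the log2 fold change was -0.80. Fabp5 had a log2 fold change of -0.47, Cav2 of -0.25, Cav1 of 0.01 and Fabp4 of -0.08, and Meox2 of -1.35 (adjusted p = 0.760 from edgeR). Of 9 leukocyte adhesion genes of endothelium, 4 were tested and all 4 were below 0, with a median of -0.13 that ran from -0.36 to -0.02 when 1 library was omitted. Vcam1 and Icam1, the most abundant, were both at -0.03 and Ackr1 was at -0.23. Madcam1 had 0 counts in every library. Of 8 adipocyte genes 3 were tested. The summed level of the 8 was 10.2 to 12.3 CPM after nicotine and 14.9 to 17.1 CPM in controls, nearly all of it Adipoq and Cfd. Adipoq, the most abundant, had a log2 fold change of -0.29, Cfd of -1.17 and Pparg of -0.18. The median of the 3 was -0.29, and it was -0.76 without nicotine replicate 2 and -0.59 without control replicate 1.

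Marker lists of other cells in the gland were summed in the same libraries, where edgeR called 0 genes in any list. All 15 smooth muscle and pericyte genes had log2 fold changes above 0, as had 51% of all genes tested, with a median of 0.73. DESeq2 called 2 of them (Acta2 and Mcam), against 0.312% of all genes, while edgeR called 0. At an unadjusted p under 0.05 in edgeR 8 of the 15 were higher, against 6.14% of all genes in either direction. All nicotine libraries were above all controls for 6 of the 15, against 6.12% of all genes. The summed level of the 15 genes was 96.2 to 265 CPM after nicotine and 68.8 to 93.4 CPM in controls. Tagln in nicotine replicate 3, the library with the most endothelial RNA, was at 137.9 CPM, and Myh11 and Rgs5 were also highest there. MCAM is made by pericytes and also by endothelium. Mcam was at 13.1, 11.7 and 12.9 CPM after nicotine and at 6.53, 7.60 and 4.46 CPM in controls (log2 fold change 1.01, adjusted p = 0.702 from edgeR and 0.0211 from DESeq2). Without control replicate 2 the median of this list was 0.97. Of the 8 fibroblast genes 7 were below 0, with a median of -0.63, and they summed to 324 to 572 CPM after nicotine and 639 to 857 CPM in controls. Dcn, Col1a2 and Col3a1 were at -0.86, -0.51 and -0.54, the adjusted p from edgeR being 0.762 for Dcn. Fibroblasts also make CD34, and their part in the level of Cd34 was not tested.

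Leukocytes and platelets carry PECAM1 as well. All 12 leukocyte genes were below 0, as were 49% of all genes tested. Their median of -0.95 was -0.43 without control replicate 3. They summed to 204 to 375 CPM after nicotine and 323 to 440 CPM in controls. Lyz2, Csf1r and S100a9 were at -0.26, -0.45 and -1.80, and S100a9 was high in control replicates 1 and 3 only. Of 7 platelet genes 4 were tested, with a median of 0.29. The median was -0.15 without nicotine replicate 1, 0.60 without nicotine replicate 2, 0.17 without nicotine replicate 3 and 0.14 without control replicate 3. The groups overlapped, with sums of 11.0 to 33.1 and 13.4 to 19.4 CPM. Pf4, Treml1 and Itga2b were at 0.46, 0.20 and 0.39, and Gp1bb had 0 counts in every library. All 7 erythroid genes were below 0, with a median of -1.09 that was -1.69 without nicotine replicate 3, and sums of 3268 to 10380 and 8610 to 17310 CPM. Hba-a1, Hbb and Hba-a2 were at -1.09, -0.98 and -0.70, and DESeq2 called Slc4a1, the anion exchanger gene of red cells, as lower. Blood cells in the vessels are one source of these transcripts. The 6 pituicyte genes of the posterior lobe had a median of 0.85, which was 0.53 without control replicate 3, 1.29 without control replicate 1 and 0.30 under a filter of 10 counts per library, with Vim at 0.10, Scn7a at 0.30 and Col25a1 at 1.65. The 7 hormone genes had a median of 0.38, which was 0.09 without nicotine replicate 2, with Gh1, Pomc and Prl at 0.39, -0.70 and -0.22. The part of these cells in the levels of the endothelial genes was not tested.

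**Figure D5:**
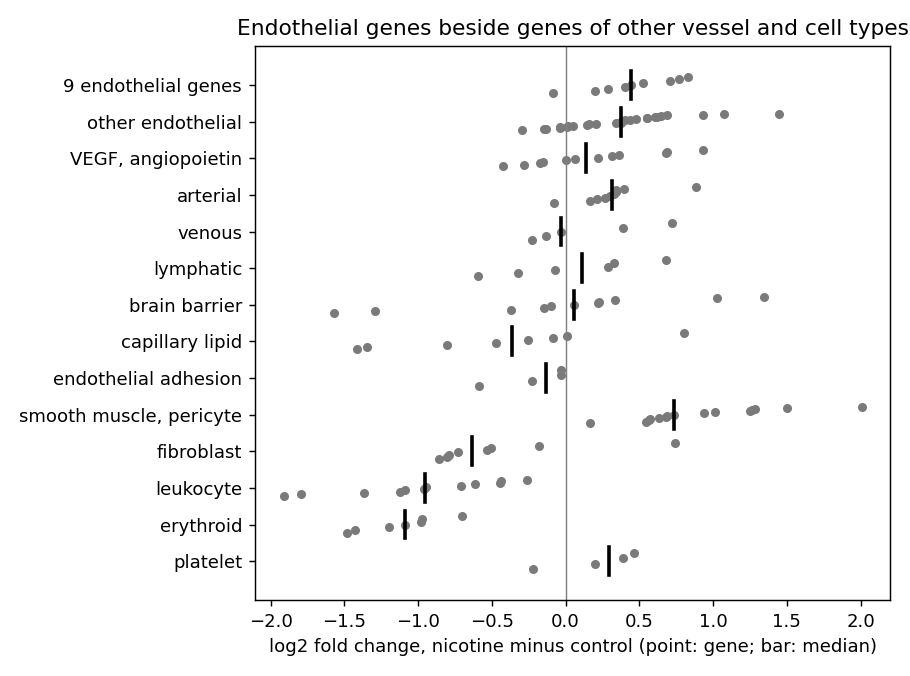
Log2 fold changes of the 9 endothelial genes beside those of the lists of other endothelial, vessel and cell type genes, with a point for each gene tested and a bar at the median of each list. The 9 genes (median 0.44) and the other endothelial genes (0.38) lie mostly to the right of 0, and the smooth muscle and pericyte genes further right (0.73). Medians are 0.32 for arterial, 0.14 for VEGF and angiopoietin, 0.11 for lymphatic and 0.05 for brain barrier genes. They are -0.03 for venous, -0.13 for endothelial adhesion and -0.36 for capillary lipid genes. Fibroblast (-0.63), leukocyte (-0.95, or -0.43 without control replicate 3) and erythroid genes (-1.09) lie to the left.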

How the data were processed

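Per the labels and the methods of the study, paired-end strand-specific reads were mapped to rn7 with HISAT2 2.1.0, and featureCounts assigned them to the UCSC ncbiRefSeq genes. The authors deposited raw counts per gene symbol, not normalized. The strand setting, the treatment of reads with several matches and whether reads or pairs were counted are not given in the sources used here. RefSeq GRCr8 lists non-coding genes that overlap Flt1, Plvap and Cd34. Exon lengths were not used, so levels are not compared between genes.

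R 4.3.3 with edgeR 4.0.16 was used for filterByExpr, TMM scaling (factors 0.957 to 1.07) and the quasi-likelihood test without a covariate, with Benjamini-Hochberg adjustment over 17292 genes. Log2 CPM used a prior count of 2, and intervals are at 95%. The call was an adjusted p below 0.1 with at least a 1.5-fold difference. Alternatives were DESeq2 1.42.0, limma 3.58.1 (voom), other scalings and filters, thinning, a replicate block and leaving out each library. The test was tried on simulated counts, where edgeR recovered 52% of the genes changed by 1 on the log2 scale and 86% of those changed by 2. With no gene changed, edgeR made 0 calls and DESeq2 made 19, and with changed genes present 44 of the 195 calls of DESeq2 were false, as were 21 of the 159 of edgeR. The members and lists were chosen with earlier results of these data known. Named were all members, the most abundant or called genes of each list and the 5 genes most like the members in profile; Vegfa and the genes of the closing observations were picked once their values were known. A further gene of the erythroid list is not reported here. The totals of 28318383 to 85977002 counts give Cd300lg 1 to 93 counts and the other members 137 to 6354.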

Additional observations from a re-analysis of the deposited data

How the results depend on the processing

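The number of genes called over all genes was 0 in edgeR with TMM. It was 54 with DESeq2, 1 with library sizes alone, 2 without a filter, 1 with voom, 1 with thinned counts and 2 with the replicate number as a block. It was 0 to 9 in the edgeR fits that left out 1 library each. With DESeq2, in alternatives added once the data had been seen, it was 46 on thinned counts, 89, 110 and 185 without nicotine replicates 1, 2 and 3, and 81, 50 and 37 without control replicates 1, 2 and 3. Of the 9 genes other than Cd300lg, 0 were called in edgeR, voom and DESeq2 with all libraries, and 0 to 2 in DESeq2 without 1 library: Pecam1 (log2 fold change 0.96, adjusted p = 0.0829) without nicotine replicate 1, and Flt1 (0.95, adjusted p = 0.00974) and Plvap (0.88, adjusted p = 0.00820) without nicotine replicate 2. The cause was not tested. The number of the 9 with all nicotine libraries above all controls was 2 without the genes over 1% of the counts (5.82% of all genes). It was 3 under a filter of 10 counts in every library (6.15%) and 5 with library sizes alone (7.66%). With 1 library left out it was 4 to 7, against 9.44% to 13% of all genes. Without nicotine replicate 3, 4 were above and 1 was below, against 10.5% and 11.1% of all genes. Cd34 reversed to 0.0019 in DESeq2 without control replicate 2. The other 203 of 207 comparisons of the 9 genes with an alternative kept direction and side of the threshold. In 22 alternatives the log2 fold change of Cd300lg ran from 2.89 to 3.62, and the filter of at least 10 counts in every library removed it. Cd300lg was selected on this difference, so fits of the same counts cannot test it. The median of the 9 stayed between 0.28 and 0.62. Deviations of same-numbered libraries from their group means, over all genes tested, had correlations of 0.0264, -0.198 and -0.0785. With 3 libraries per group, these values cannot decide whether the replicate numbers pair the rats. With the replicate block 0 of the 9 were called and their median was 0.43. Depth limits Cd300lg in the controls, at 1 to 4 counts per library.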

Other observations

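Nos3 and Sox18, outside the most abundant genes of the second endothelial list, were picked after their values were seen. They had the highest log2 fold changes of its 28 tested genes. Of these 28, 23 were above 0 and 5 below, among them the regulators Tal1 (-0.29), Sox7 (-0.14) and Fli1 (-0.04). Nos3, the endothelial nitric oxide synthase, was at 1.63, 1.498 and 1.70 CPM in nicotine replicates 1, 2 and 3 and at 0.701, 0.775 and 0.264 CPM in the controls (log2 fold change 1.45 with a standard error of 0.38, and an edgeR adjusted p = 0.760). Sox18, a transcription factor of endothelial development, was at 2.715, 4.265 and 3.39 CPM after nicotine and at 1.66, 2.04 and 1.215 CPM in controls (log2 fold change 1.07 with a standard error of 0.30, and an edgeR adjusted p = 0.760). Neither gene overlapped between the groups, also in nicotine replicate 2, which had the lowest summed level of the 9 endothelial genes in its group. All nicotine libraries were above all controls for 6 of the 28 genes, against 6.12% of all genes tested. Nos3 and Sox18 were not called by DESeq2 (adjusted p = 0.193 for each).

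Gpihbp1, which encodes the capillary anchor of lipoprotein lipase, was too low to be tested. It was singled out from the capillary lipid list with its levels already known. It was at 0.651 CPM in nicotine replicate 2, where Cd300lg was highest, and at 0 to 0.1485 CPM in the other 5 libraries. Cd300lg exceeded all controls in nicotine replicates 1 and 3 too. Gpihbp1 was there at 0.1485 and 0.04955 CPM, against 0 to 0.1056 CPM in controls, so the likeness rests on 1 library. Meox2 and Cd36 of the same list were lowest in nicotine replicate 2, at 0.3038 and 0.07596 CPM.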
